A study of Mus musculus with 11 samples.

Results

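The 5 late-fate transcription factors Nfia, Nfib, Nfic, Nfix and Zbtb20 were followed by name through both kinds of expression data of the Syncrip conditional knockout (cKO) series, as 5 of the 48440 genes of the RNA-seq table and 5 of the 32285 genes of the scRNA-seq matrices. RNA-seq was made from cultured neural progenitor cells (NPCs) of E14.5 mice, with 3 wild-type (WT) and 3 cKO cultures. The scRNA-seq came from the dorsal telencephalon of 1 WT and 1 cKO embryo, taken at E14.5 from the same pregnant mouse. Libraries of Syncrip-bound RNA from such cultures (LACE-seq) were not analysed here. The cKO mice carried a loxP-flanked Syncrip allele and a Cre transgene on the C57BL/6 background. Emx1-Cre acts in the dorsal telencephalon and Nestin-Cre throughout the nervous system, and the study uses the name cKO mainly for Emx1-Cre, but the labels give no Cre line for the cultures or the embryos. The NPCs came from tissue around the lateral ventricles and were passaged in medium with EGF and bFGF, so the cultures are a selected, dividing population and not the intact ventricular zone.

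Nuclear factor I (NFI) proteins bind DNA as homodimers or heterodimers through a domain that the family members share. In the developing forebrain, Nfia, Nfib and Nfix are known for promoting the exit of radial glia from self-renewal and the onset of gliogenesis, whereas Nfic is better known from tooth development. Zbtb20 encodes a zinc finger repressor with a BTB domain that is known from the specification of hippocampal neurons, from the timing of upper-layer neuron production and from astrocyte formation.

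On the mm10 assembly, Nfia (ENSMUSG00000028565) lies on the plus strand at chr4:97772734-98118874 and Nfib (ENSMUSG00000008575) on the minus strand at chr4:82290173-82705750. Nfic (ENSMUSG00000055053) lies on the minus strand at chr10:81396186-81431005 and Nfix (ENSMUSG00000001911) on the minus strand at chr8:84699876-84800344. Zbtb20 (ENSMUSG00000022708) spans the plus strand at chr16:42875881-43642602. The union of annotated exons (GENCODE release M21) was longest for Zbtb20, with 30730 bases, and shortest for Nfic, with 6630 bases. At most 5.19% of the exon bases of a member, and at most 10.3% of its span, lay within the span of another gene of the table.

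The longest annotated 3′ UTR of each member was searched on the sense strand for the letters CTGCTGCA and CTTCTTCAG, the DNA form of the leading Syncrip motifs given by the study. CTGCTGCA occurred once in Nfia and once in Zbtb20. It was not found in the windows of Nfib, Nfic and Nfix, and CTTCTTCAG was found in none of the 5. The study reports Syncrip LACE-seq peaks in the 3′ UTRs of Nfib and Nfix, and shorter half-lives of both mRNAs in cKO NPCs. A search for exact letters does not address those peaks. Of 20659 protein-coding genes, 5.13% held CTGCTGCA in their longest 3′ UTR and 1.42% held CTTCTTCAG. Long UTRs hold it more often, and among 351 genes with a 3′ UTR of a length like that of Nfia 18.8% did. The sites are shown because they are the only matches among the members, at chr4:98117288-98117317 and chr16:43627357-43627386, both on the plus strand and inside the 3′ UTR, with the motif letters in capitals.
Nfia: tttcaagaactCTGCTGCAaaaccactctg
Zbtb20: cccatcaccacCTGCTGCAgttaatctggt
A match to letters does not show binding, and the absence of a match says only that these letters are not in that window.

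Depth and identity of the libraries were checked first. The cultures held 16962900 to 22708400 counts each, and Syncrip itself lay between 77.9 and 79.9 CPM (counts scaled to library size by TMM) in WT and between 81.5 and 90.3 CPM in cKO, with an adjusted p of 0.180 in edgeR's quasi-likelihood test with Benjamini-Hochberg adjustment. Counts over the whole gene and UMIs (unique molecular identifiers) from the 3′ end do not check the deletion of some of its exons. After filtering, 8214 WT and 9559 cKO cells remained, with medians of 11705 and 11016 UMIs per cell. More barcodes were deposited than the number of captured cells the protocol states. Only 22 barcodes were shared between the libraries. The embryos differed in sex, with 2 Xist UMIs in the WT and 105339 in the cKO library, and the cultures differed in sex within each genotype. The labels do not say from which embryos the cultures came. Since both sexes were found in each genotype, the cultures of a genotype did not all share a source, but how many sources there were is not known, and p-values measure only the spread between these cultures, part of which may be technical.

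In cultured NPCs, Nfib, Nfic, Nfix and Zbtb20 were lower in cKO and Nfia was not. Among 14432 tested genes, 19.8% were called lower at an adjusted p below 0.05 and 39.5% in either direction, against 4 of the 5 members called lower and 0 called higher. The same 4 members had all 3 cKO cultures below all 3 WT cultures, which held for 24.7% of tested genes. Lower expression was thus common in these cultures, and since the members were chosen with results known nothing particular to them is read from their count. The plot of values by culture shows the 5 genes side by side.

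**Figure D1:**
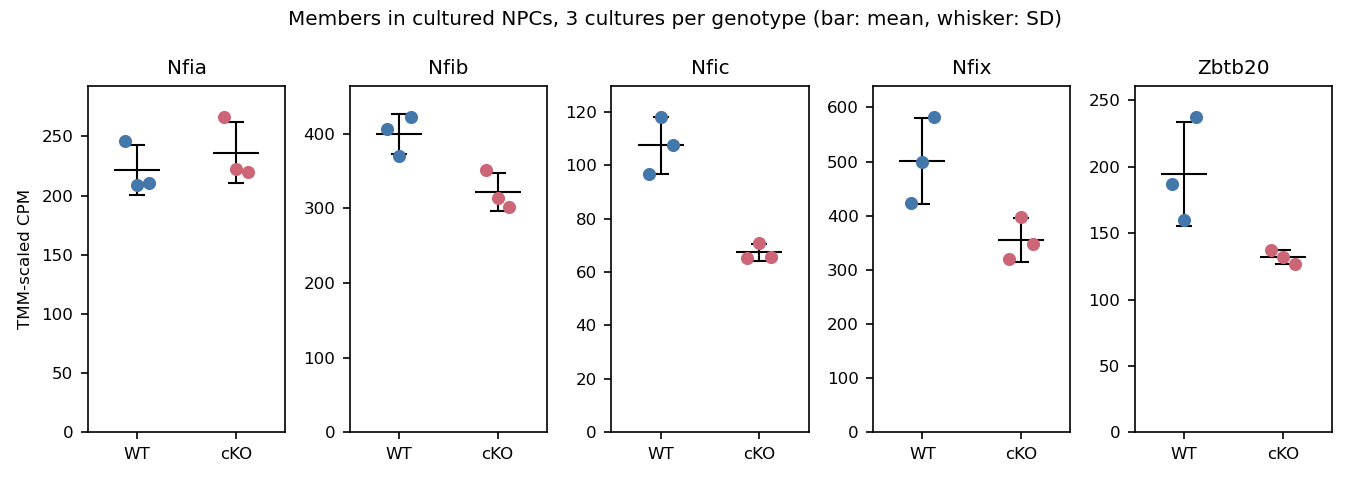
Expression of the 5 members in cultured NPCs as TMM-scaled CPM (vertical axes, starting at 0), with 1 point per culture, the mean as a bar and the SD as whiskers. For Nfib, Nfic, Nfix and Zbtb20 the 3 cKO points lie below the 3 WT points, and for Nfia they overlap.

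Nfia had 246, 209 and 210.4 CPM in WT cultures, and the cKO cultures had 266, 222 and 220.04 CPM. The genotypes overlapped, and replicate 1 was the highest culture of both. The fitted log2 fold change of cKO over WT was 0.09 with a standard error of 0.09 (adjusted p = 0.484, edgeR).

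Nfib had 407, 369.6 and 422 CPM in WT and 351, 314 and 302 CPM in cKO cultures. The highest cKO culture was close to the lowest WT culture without reaching it. On the log2 scale the difference was -0.31 with a standard error of 0.09 (adjusted p = 0.0112, edgeR), and it lost the call without cKO replicate 2 (adjusted p = 0.0518) or without cKO replicate 3 (adjusted p = 0.0795).

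Nfic had the largest fold change of the 5. Its level was 96.8, 118 and 107 CPM in WT and 65.4, 71.01 and 65.6 CPM in cKO cultures. The 3 cKO cultures were close to each other and well below the WT cultures. The log2 fold change of -0.67, a fold of 0.627, had a standard error of 0.09 (adjusted p = 3.71e-05, edgeR).

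The WT cultures had 423, 499 and 582 CPM of Nfix, and the cKO cultures had 319.9, 398 and 348 CPM. Its WT cultures were spread widely, and the lowest of them was only slightly above the highest cKO culture. For Nfix the log2 fold change was -0.50, with a standard error of 0.11 (adjusted p = 0.0035, edgeR).

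Of Zbtb20, the WT cultures held 187, 160.03 and 237 CPM, while 137, 132 and 127 CPM were found in cKO. Here too the spread was wide in WT and narrow in cKO, with SDs of 39.1 and 5.12 CPM. For Zbtb20 the log2 fold change was -0.56, with a standard error of 0.11 (adjusted p = 0.00163, edgeR). Zbtb45, the closest relative of Zbtb20, was listed at 0 in all cultures. Its whole span overlaps Trim28, and other genes fully inside another span, such as Tubb3 and Dlx1, were also listed at 0, so this is no measure of its expression.

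Because the members differ in length, their levels were set beside each other only per kilobase of exon (RPKM). In WT cultures Nfix was highest, at 68.2 ± 10.8 RPKM (SD, n = 3), followed by Nfib at 26.7 ± 1.79 and Nfia at 20.4 ± 1.95 RPKM. Nfic was at 16.2 ± 1.59 and Zbtb20 lowest at 6.34 ± 1.27 RPKM. This order and the NFI shares depend on the exon unions, which may include exons not used in these cultures. The deposited gene lengths were whole spans, 346141 bases for Nfia. Zbtb45 shared no exon base with another gene but was listed at 0. The counts thus appear to cover introns, for which exon length is not the right divisor. Order and shares are therefore not read as amounts of mature transcript. The union of Nfic was taken from an annotated gene that ends at 81455635, beyond its deposited span. The intervals of 1 SD of Nfia and Nfib did not overlap, nor did those of Nfia and Nfic. The summed RPKM of the 4 NFI genes was 122, 129.5 and 143 in WT and 101, 106 and 97.6 in cKO cultures. Their summed CPM, without scaling by length, was 1173, 1195 and 1321 in WT and 1002, 1005 and 935 in cKO cultures. By both sums each cKO culture lay below each WT culture.

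The share of each gene in the summed NFI RPKM was compared by an exact permutation test, which cannot give a p below 0.1 for 3 cultures against 3, so that no share could pass a threshold of 0.05. Nfia made up 18.6%, 14.8% and 13.5% of the summed NFI RPKM in WT and 24.1%, 19.2% and 20.7% in cKO cultures, with no overlap (exact permutation test, two-sided, p = 0.1, n = 3 each). Nfic made up 12.3% ± 1.23 in WT and 9.98% ± 0.211 in cKO (SD, n = 3), also without overlap (exact permutation p = 0.1). The shares of Nfix, 51.7% ± 4.15 and 47.5% ± 4.1 (SD, n = 3), overlapped (exact permutation p = 0.3), as did those of Nfib, 20.4% ± 1.69 and 21.2% ± 1.78 (exact permutation p = 0.6). Adjusted over these 4 shares by Benjamini-Hochberg, the smallest value was 0.2.

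Other genes of these pathways were counted in the same fit, beside a median log2 fold change of 0.00 over all tested genes. Of 12 glial and late radial glia genes linked to NFI factors or Sox9, 11 were tested, 7 were lower and 2 higher in cKO, with a median of -0.34, where 19.8% of all tested genes were lower and 39.5% differed in either direction. The lower ones included the glycolytic enzyme gene Aldoc (-0.89), the membrane protein gene Mmd2 (-0.51) and Sox9 itself (-0.34), which encodes a transcription factor that acts with Nfia in gliogenesis. The 2 higher ones were Fabp7 (0.75), which encodes the brain lipid-binding protein of radial glia, and Hopx (0.99), a marker of outer radial glia.

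Of 5 genes reported as NFI targets, all tested, 2 were higher and 2 lower, with a median log2 fold change of -0.12. Hes1, a Notch effector, rose by a log2 fold change of 2.84, and Ezh2, which encodes a histone methyltransferase, by 0.61. Both are reported to be repressed by NFI proteins. Insc, a regulator of spindle orientation, was lower with a log2 fold change of -1.92, and Bbx did not pass the test. Of 3 genes linked to Zbtb20 only Pou3f2, an upper-layer neuron factor, was tested, and it was lower (-0.50).

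Markers of other cell types were read in the same cultures, from lists chosen with earlier results known. Among all tested genes 19.8% were lower and 39.5% differed in either direction. Of 7 tested neuron markers 6 were lower and 0 higher, with a median log2 fold change of -2.24. The log2 fold change was -6.56 for Stmn2, -4.33 for Syt4 and -4.14 for Neurod6, whereas Map2, the gene with most reads of the list, had 0.19 and did not pass the test. The summed level of the list therefore ran only from 2473 to 2740.1 CPM in WT and from 2289 to 2400.2 CPM in cKO cultures, with Tubb3 listed at 0 in all. Of 5 tested astrocyte markers 4 were lower and 0 higher, with a median of -0.40 and summed levels of 4007 to 4430 CPM in WT and 2439 to 2751 CPM in cKO and Gfap listed at 0 in all, its span lying inside another gene. For the oligodendrocyte lineage 2 of 6 were higher and 1 lower, with a median of 0.14 and sums of 3244 to 3479 and 2781 to 3207 CPM. For the ventral telencephalon 1 of 4 tested markers was lower, with a median of -0.45, sums of 23.0 to 27.7 and 22.6 to 28.9 CPM and Dlx1 and Nkx2-1 listed at 0 in all. The part of these cell types in the values of the members was not tested, and in bulk RNA fewer cells of a type and less RNA per cell cannot be told apart.

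Single cells allowed the members to be placed in cell types. Clustering without the 5 members gave 27 clusters, of which 22 were named into 11 classes from marker genes and 5 were left unnamed. Every marker of each class was higher in that class than in the others together by at least 1.5-fold in both libraries. Levels are summed UMIs of a gene scaled to the total UMIs of the class (CPM), with exact Poisson 95% intervals that cover counting error only, and they are compared across classes and not across genes. Each genotype was a single embryo, so the spread between embryos is unknown and no test was made.

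**Figure D2:**
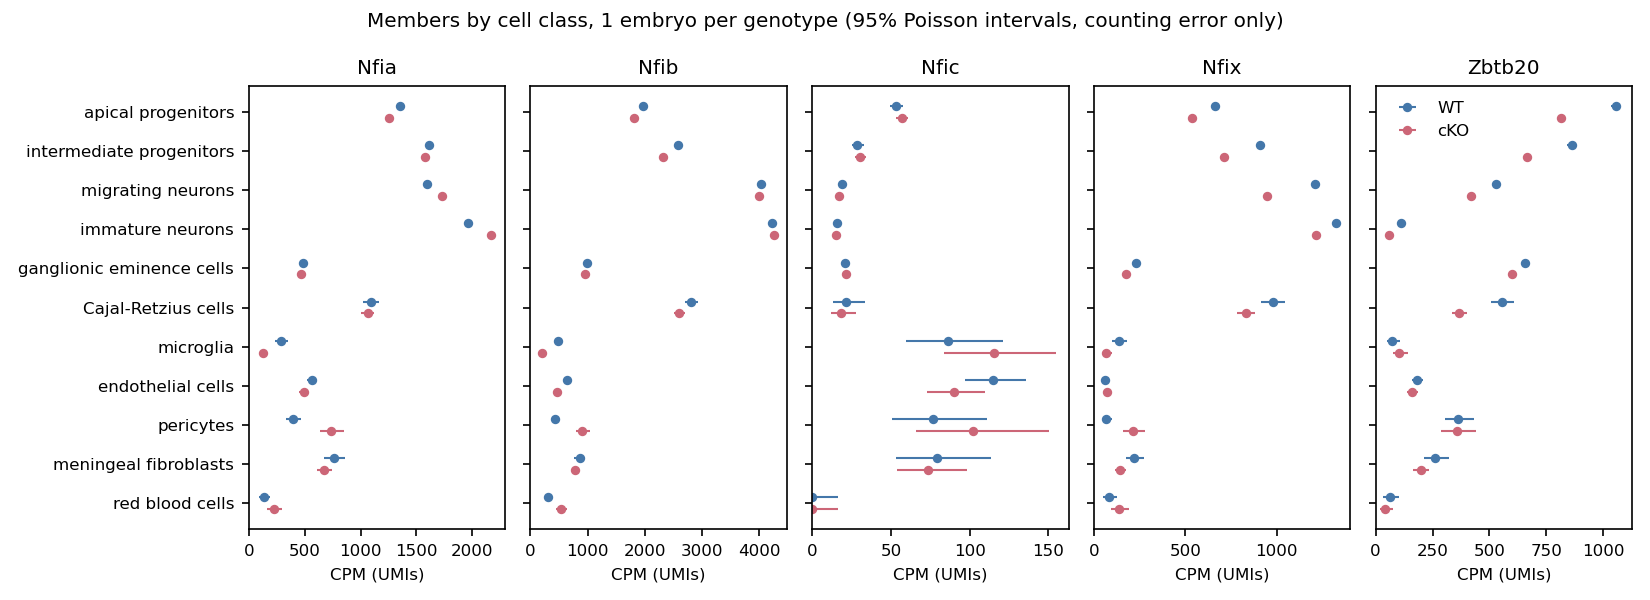
Level of each member in 11 cell classes as CPM of UMIs (horizontal axes, starting at 0), WT in blue and cKO in red, with exact Poisson 95% intervals. Nfia, Nfib and Nfix are highest in immature neurons, Zbtb20 is highest in apical progenitors, and Nfic is highest in endothelial cells of WT and lowest in red blood cells, which held 0 UMIs of it.

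In the WT embryo the level of Nfib was higher at each step of the neuronal lineage. It was at 1961 CPM (1936 to 1987) in apical progenitors (APs), 2573 CPM (2538 to 2608) in intermediate progenitors, 4040.2 CPM (4014 to 4067) in migrating neurons and 4233 CPM (4207 to 4259) in immature neurons. Nfix followed the same order, from 664 CPM (649 to 679) in APs through 910.1 CPM (889 to 931) and 1211 CPM (1196 to 1225) to 1323 CPM (1308 to 1338) in immature neurons. Nfia was at 1349 CPM (1328 to 1370.5) in APs and 1965 CPM (1947 to 1983) in immature neurons, while its levels in intermediate progenitors and migrating neurons, 1612 and 1590.2 CPM, did not differ beyond their intervals.

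Zbtb20 took the opposite course. It was at 1054 CPM (1036 to 1073) in APs, 861 CPM (841 to 882) in intermediate progenitors, 529 CPM (519 to 539) in migrating neurons and 111 CPM (107 to 115) in immature neurons. In cells of the ganglionic eminence Zbtb20 was at 656 CPM (640.4 to 671), above its level in migrating neurons, whereas Nfia, Nfib and Nfix had their lowest neural level in that class, at 482, 995 and 229.9 CPM. In the cKO embryo the order of these 5 classes was the same for Zbtb20, from 815 CPM in APs to 60.3 CPM in immature neurons.

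Among the neural classes Nfic had its highest level in APs, at 53.5 CPM (49.3 to 57.8). Intermediate progenitors followed with 28.7 CPM (25.1 to 32.6), and the other neural classes had 15.8 to 21.7 CPM with overlapping neighbours. Its levels were higher in endothelial cells, with 115 CPM (96.8 to 136), microglia with 86.4 CPM, meningeal fibroblasts with 79.2 CPM and pericytes with 76.6 CPM, and neighbours in this order overlapped. These 4 classes held only 24 to 89 WT cells each.

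Red blood cells, which should lack these factors, give a rough level of free RNA. They were shallow, with medians of 3570 and 2838 UMIs in WT and cKO, so their CPM is no exact floor for deeper classes. In the WT and cKO libraries they held 134 and 225 CPM of Nfia, 303 and 541 CPM of Nfib, 80.2 and 136 CPM of Nfix, and 62.4 and 39.6 CPM of Zbtb20. No Nfic UMI was found in 54 WT and 55 cKO red blood cells, with upper limits of 16.4 and 16.2 CPM. Microglia of the cKO library, with 126 CPM of Nfia and 210 CPM of Nfib, lay below the red blood cells of that library, and are read as background. Zbtb20 in cKO immature neurons, at 60.3 CPM (57.3 to 63.4) over the whole class, lay within the interval of the red blood cells of that library (18.1 to 75.2).

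In APs thinned to 5000 UMIs each, most cells held a UMI of Nfia, Nfib, Nfix and Zbtb20. For Zbtb20 the share of APs with a UMI was 94.1% (92.1 to 95.8, Clopper-Pearson) in WT and 90.8% (88.9 to 92.5) in cKO, and for Nfix 90.9% (88.5 to 93.0) and 85.8% (83.5 to 87.9). Thinning left out 23 WT and 17 cKO APs, and without it the shares were 99.3% and 98.5% for Zbtb20 and 97.02% and 96.3% for Nfix. Of the 15 WT and 17 cKO red blood cells deep enough for thinning, 6.67% and 5.88% had a Zbtb20 UMI and 6.67% and 29.4% an Nfix UMI. The same cells held an Nfib UMI in 46.7% and 35.3% and an Nfia UMI in 26.7% and 35.3%, where APs held Nfib in 99.7% and 99.2% and Nfia in 97.9% and 98.3%. Median depth before thinning was 14444 and 14214 UMIs in APs and 3570 and 2838 UMIs in red blood cells. Nfic was found in 21.1% of WT APs (18.1 to 24.4) and 23.7% of cKO APs (21.1 to 26.4), and a UMI of all 5 members together in 18.3% and 18.0%. Without thinning these shares were 47.9% and 50.8% for Nfic and 47.1% and 49.0% for all 5.

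Genotype ratios set Nfix and Zbtb20 apart from the other members by size in progenitors. In APs the log2 ratio of cKO over WT was -0.31 (-0.35 to -0.27) for Nfix and -0.37 (-0.41 to -0.34) for Zbtb20. It was -0.11 (-0.14 to -0.08) for Nfia, -0.12 (-0.14 to -0.09) for Nfib and 0.09 (-0.06 to 0.24) for Nfic, so that the intervals of the first pair lay wholly below those of the others. In APs 2 of 5 members had a log2 ratio of -0.2 or lower, where 11.4% of the 10202 genes with at least 200 UMIs did, and the median log2 ratio was -0.12 over the members and -0.01 over those genes. The plot of ratios by class shows the value of -0.2 as a dotted line. Nfic, the member with the largest fold change in cultures, thus had an interval that included 0 over all APs. In the AP cluster led by Aldoc, Fabp7 and Hes5 it was higher in the cKO library, with 0.36 (0.14 to 0.59), and in APs called S phase it had 0.26 (0.03 to 0.49), the opposite direction to the cultures. Other parts of the APs had negative values with intervals that included 0. Nfic had -0.15 (-0.40 to 0.11) in the cluster led by histone genes, -0.14 (-0.35 to 0.06) in G2M cells and -0.29 (-1.07 to 0.46) in G1 cells.

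**Figure D3:**
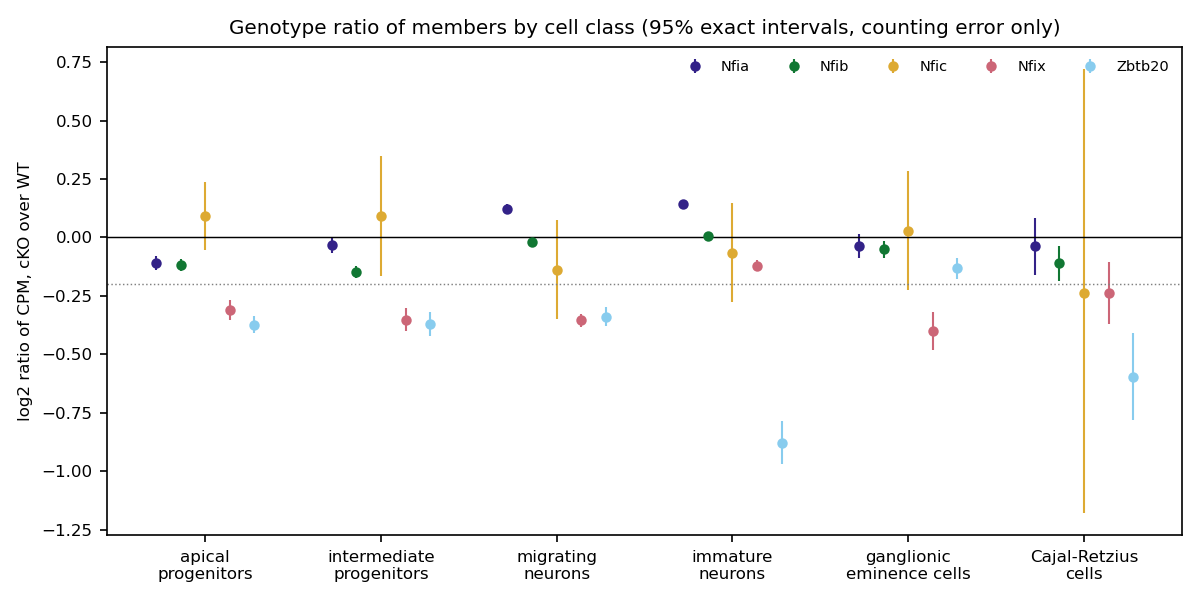
Log2 ratio of CPM, cKO over WT (vertical axis), of the 5 members in 6 cell classes, with exact 95% intervals that cover counting error only. The dotted line marks -0.2. Nfix and Zbtb20 lie below it in APs, intermediate progenitors and migrating neurons.

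In intermediate progenitors the same 2 of 5 members passed this step, with log2 ratios of -0.35 for Nfix and -0.37 for Zbtb20, against 9.81% of all genes. Nfib followed with -0.15 (-0.18 to -0.12). In migrating neurons again 2 of 5 passed it, Nfix with -0.35 (-0.38 to -0.33) and Zbtb20 with -0.34 (-0.38 to -0.30), against 8.74% of genes. The value of Zbtb20 there depended on the clustering, with -0.02 at resolution 0.4 and -0.21 at resolution 1.2 in place of 0.8. In immature neurons Zbtb20 alone passed it, 1 of 5 against 9.07%, and Nfix had a log2 ratio of -0.12 (-0.14 to -0.10).

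Nfia went the other way in neurons. Its log2 ratio was 0.12 (0.10 to 0.14) in migrating and 0.14 (0.13 to 0.16) in immature neurons, with levels of 1728 CPM in cKO against 1590.2 CPM in WT migrating neurons and 2170 against 1965 CPM in immature neurons. Among migrating neurons it was 0.23 (0.20 to 0.26) in the cluster led by Nrp1 and Rnd2 and -0.02 (-0.05 to 0.01) in the cluster led by Neurod1 and Eomes.

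Cells of the ganglionic eminence lie outside the region in which Emx1-Cre is known to act, and 1 of 5 members passed the step there against 7.99% of genes. This was Nfix, with a log2 ratio of -0.40 (-0.48 to -0.32), against -0.13 (-0.18 to -0.09) for Zbtb20. The clusters of this class differed among themselves. For Nfix the log2 ratio was -0.996 (-1.31 to -0.69) in the cluster led by Ebf1 and Isl1, -0.80 (-0.96 to -0.64) in that led by Adarb2 and Six3, -0.03 (-0.30 to 0.25) in that led by Sst and Lhx6, and 0.16 (0.01 to 0.32) in cycling cells. The Sst and Lhx6 cluster held 47.0 and 46.1 CPM of Nfix in WT and cKO, below the red blood cells (80.2 and 136 CPM). Its ratio is read as background and not as an unchanged level. The cKO levels of the class, 174 CPM, and of the Adarb2 and Six3 cluster, 153 CPM, lay within the interval of cKO red blood cells (92.7 to 194). A further cluster of the class, of 46 WT and 58 cKO cells, was 92.3% called doublets, and without called doublets the ratio of Nfix in the class was -0.08 and that of Nfib turned from -0.05 to 0.22.

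The 3 clusters of APs differed as well. In the cluster led by the radial glia genes Aldoc, Fabp7 and Hes5, WT cells had 1181 CPM of Zbtb20 and cKO cells 856 CPM, a log2 ratio of -0.46 (-0.51 to -0.42), and Nfix had -0.42 (-0.48 to -0.35). In the cluster led by histone genes Nfix had -0.02 (-0.11 to 0.06) and Zbtb20 -0.30 (-0.37 to -0.24). In the cluster led by the mitotic genes Cdc20 and Ccnb1 all members but Nfic had an interval below 0, from -0.23 for Nfia to -0.39 for Zbtb20. Among intermediate progenitors, Zbtb20 had -0.56 (-0.63 to -0.50) in the largest cluster and -0.04 (-0.12 to 0.05) in the cycling cluster, where Nfix had -0.43 (-0.52 to -0.34). A further cluster of intermediate progenitors, of 44 WT and 53 cKO cells, was 82.5% called doublets and is part of the values of the class.

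Ratios within APs also differed by cell cycle phase. In cells called G1 the log2 ratio was -0.68 (-0.83 to -0.53) for Nfix and -0.51 (-0.62 to -0.40) for Zbtb20, with 112 WT and 91 cKO cells. In G2M cells it was -0.21 (-0.27 to -0.15) and -0.27 (-0.32 to -0.22), and in S cells -0.31 (-0.39 to -0.23) and -0.44 (-0.50 to -0.38). Nfic in WT APs was at 59.7 CPM in S and 27.99 CPM in G1, and Zbtb20 at 1120.4 CPM in S, 954 CPM in G2M and 1322 CPM in G1. The part of free RNA in the phase calls was not tested.

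Markers of other cells were also present in these APs. Of 8 neuron markers 7 had a log2 ratio whose interval lay above 0, with a median of 0.46, where 14.1% of genes with at least 200 UMIs did, and the level of Neurod6 in APs was 77.2 CPM for WT and 109 CPM for cKO. Among APs 8.41% of cells were called doublets. Without called doublets the log2 ratio was -0.38 for Nfix, -0.34 for Zbtb20, -0.18 for Nfia and -0.22 for Nfib. Of 7 ventral telencephalon markers 2 had at least 200 UMIs, and both lay above 0, Gad2 with 0.78 (0.44 to 1.13) and Dlx1 with 0.59 (0.15 to 1.04). The part of neuronal or ventral RNA in the remaining ratios was not tested.

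The other genes of the lists were read in APs as well. Of 11 genes linked to NFI factors or Sox9 with at least 200 UMIs, 6 had an interval below 0 and 2 above, with a median of -0.15, where 15.6% of genes lay below 0 and 14.1% above. Tnc, which encodes an extracellular matrix protein of radial glia, had the log2 ratio farthest from 0 at -0.51 (-0.64 to -0.39), and Sox9 had -0.20 (-0.26 to -0.14). For Hes1 the log2 ratio in APs was 0.34 (0.26 to 0.42), with 165 CPM in WT and 209.7 CPM in cKO, while Ezh2 had 0.04 (-0.02 to 0.09). Hopx, which was higher in cKO cultures, had a log2 ratio of -0.32 (-0.53 to -0.10) in APs. Zbtb45, which could be read here, was at 13.5 to 18.1 CPM in the 6 neural classes of WT and had a log2 ratio of 0.21 (-0.08 to 0.50) in APs.

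The log2 ratio of Zbtb20 in immature neurons, -0.88 (-0.97 to -0.79), differed between the 2 clusters of the class. In the cluster led by Ldb2 and Fezf2 WT cells had 112 CPM and cKO cells 27.9 CPM, a log2 ratio of -2.002 (-2.16 to -1.85). This cKO level was not above the CPM of red blood cells in the same library (39.6 CPM). Those cells were shallower, with a median of 2838 UMIs against 16845.5 in this cluster over both libraries. Of its cKO cells 30.3% held a Zbtb20 UMI. How much of the cKO level is free RNA is thus not known, and the ratio is not read as a measured fold. In the cluster led by Hs3st4 and Rgs6 Zbtb20 was at 109 and 114 CPM, a log2 ratio of 0.06 (-0.07 to 0.19). In the first cluster few cells held most of the transcript: 41 of 889 WT cells had at least 10 Zbtb20 UMIs, against 1 of 917 cKO cells, and the top 5% of WT cells held 72.4% of its UMIs.

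**Figure D4:**
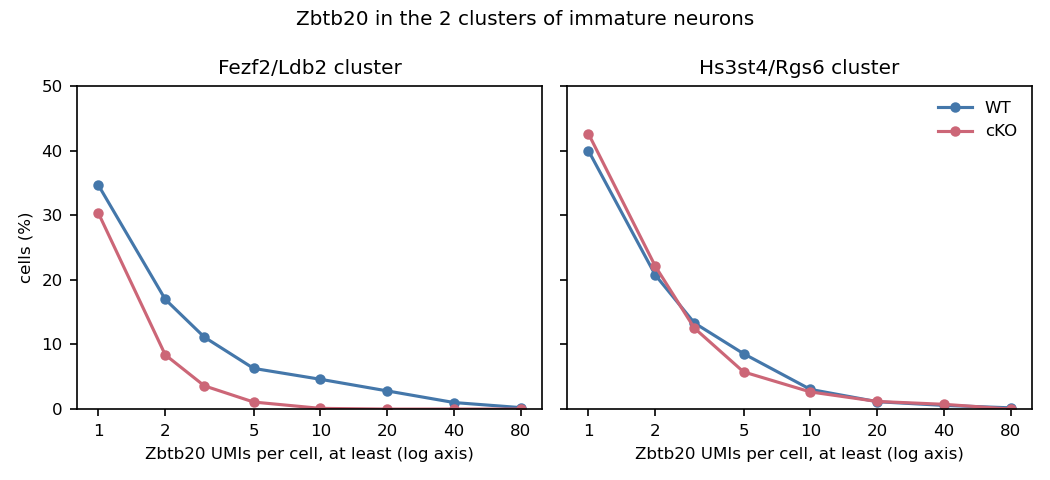
Share of cells (vertical axis, percent) with at least the number of Zbtb20 UMIs on the horizontal log axis, in the 2 clusters of immature neurons, WT in blue and cKO in red. In the Fezf2/Ldb2 cluster 4.61% of WT and 0.109% of cKO cells reach 10 UMIs, and in the Hs3st4/Rgs6 cluster 3.05% and 2.65% do.

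Those 41 WT cells were compared with the other WT cells of their cluster. They had 848 against 146 CPM of Nrp1 and 287 against 12.4 CPM of Nrp2, both receptors for semaphorins, and 213 against 356 CPM of Fezf2. Bcl11b was at 641 against 812 CPM and Neurod6 at 1226 against 1432 CPM. These genes were picked by hand. When cells with at least 10 Zbtb20 UMIs were left out of both libraries, an alternative chosen after seeing the data, the log2 ratio of the class was -0.13 (-0.26 to 0.00) and that of the cluster led by Ldb2 and Fezf2 was -0.36 (-0.55 to -0.17). This removed 57 WT and 19 cKO cells of the class by the gene's own level, which lowers the higher library more, so the smaller ratios are a description and no test. The number of such cells cannot be compared between genotypes with 1 embryo each.

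Outside these classes the counts were smaller. In Cajal-Retzius cells, early-born neurons of the marginal zone, with 63 WT and 111 cKO cells, the level of Zbtb20 was 555 CPM for WT and 368 CPM for cKO (log2 ratio -0.60, -0.78 to -0.41) and that of Nfix 979 and 830.2 CPM (-0.24, -0.37 to -0.11). Nfia and Nfib had -0.04 (-0.16 to 0.08) and -0.11 (-0.19 to -0.03) there. In pericytes, microglia, endothelial cells and meningeal fibroblasts, with 18 to 91 cells per library, the ratios of Nfix ran from -0.996 in microglia to 1.63 in pericytes, and no direction is read from them.

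Finally, the genes whose level over the 11 WT classes was most like that of each member were listed among 11363 genes, as a description over classes that share 1 library. For Nfix they were Nfib (Pearson r = 0.96), Tnik (0.95) and Fdft1 (0.95), and for Nfib they were Tnik (0.96), Nfix (0.96) and Fdft1 (0.96). Nfia was most like Neo1 (0.94), Nfib (0.94) and Gas5 (0.94). In the cKO library Nfib and Nfix had r = 0.97 and Nfia and Nfib 0.94. Nfic was most like Rhoa (0.99), Magt1 (0.98) and Pfn1 (0.98), with r = -0.34 to Nfix. Zbtb20 was most like Hmgb3 (0.95), Chd6 (0.92) and Tex9 (0.92), and its r to the NFI genes ran from 0.11 for Nfic to 0.59 for Nfia.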

How the data were processed

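The authors filtered paired RNA-seq reads, aligned them to mm10 with HISAT2 and deposited raw counts per gene and culture. The counting program and its strand setting were not given in the sources used here. They deposited unnormalized UMI counts per barcode from Cell Ranger 7.0.0 (per the file headers). No sample column of the bulk table was left without a sample. RNA-seq counts were fitted with edgeR 4.0.16 in R 4.3.3 (TMM, filterByExpr, robust quasi-likelihood test, Benjamini-Hochberg over 14432 genes, threshold 0.05). The fit was also tested on simulated data. RPKM used exon unions of GENCODE M21, which shares the position of 42164 table genes.

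Barcodes under 200 genes or above 10% mitochondrial UMIs were removed, and cells were clustered with Seurat 5.3.0 (2000 variable genes without the members, 30 components, 20 neighbours, resolution 0.8). Doublets (298 WT and 444 cKO) were called with Scrublet in scanpy 1.11.5 and removed only as an alternative. A cluster took a class name when its mean standardized marker score reached 0.5, 3 or more markers were raised 1.5-fold and it had no more markers of another class among its 10 leading genes, limits set after the clusters were seen. A cluster of low depth without a marker of its class among the leading genes was also left unnamed. This held for the cluster led by Hist1h1b, Mt3 and Fabp7, closest to APs with a score of 0.51, of 198 WT and 219 cKO cells. Ratios have exact conditional 95% intervals, and intervals cover counting error only.

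Genes were named by rule: the members, Zbtb45, the 3 most alike genes of each by Pearson r of log2(CPM + 10), and the genes of 3 pathway lists and 4 marker lists. The genes read in the cells with at least 10 Zbtb20 UMIs were picked by hand outside this rule. The members and lists were chosen with earlier results of these data known. Alternatives were other scalings, DESeq2 1.42.0, limma-voom 3.58.1, no count filter, a replicate block, sex as covariate, cultures left out, other resolutions, cell filters and weights.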

Additional observations from a re-analysis of the deposited data

How the results depend on the processing

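In cultures the 4 lower calls held under RLE and upper quartile scaling, DESeq2, limma-voom, no count filter, sex as covariate and the replicate block. Without single cultures the log2 fold change ran from -0.01 to 0.16 for Nfia, which turned below 0 at -0.0139 without cKO replicate 1, from -0.38 to -0.26 for Nfib, which lost its call without cKO replicate 2 or 3, from -0.75 to -0.61 for Nfic, from -0.61 to -0.38 for Nfix and from -0.69 to -0.39 for Zbtb20, and 3 to 4 members were called lower. The share of Nfib in the NFI mix differed by 0.823 percentage points, with a range without single cultures of -0.167 to 1.78, turning below 0 without cKO replicate 1. Same-numbered cultures deviated together with r = 0.264, -0.0466 and 0.116, so the numbers do not pair them, and the replicate block gave -0.31 for Nfib, -0.67 for Nfic, -0.49 for Nfix and -0.54 for Zbtb20 with 4 members called lower. In APs the log2 ratio was -0.18 for Nfia, -0.22 for Nfib and -0.38 for Nfix without doublets. Phases weighted equally gave -0.15 for Nfia, -0.15 for Nfib, -0.41 for Nfix and -0.42 for Zbtb20, and the mean over cells gave -0.31 for Zbtb20. The other 27 alternative values of AP ratios stayed within their intervals. The ratio of Nfib in ganglionic eminence cells turned to 0.22 without doublets and 0.12 as a mean over cells, and that of Zbtb20 in meningeal fibroblasts to 1.30 as a mean over cells. Besides these 3 reversals, 50 of 290 values outside APs moved beyond their intervals. The causes were not tested. At resolution 0.4 no meningeal cluster was formed. Depth limits Nfic, with 226 to 976 UMIs per large class and library, and the 1 embryo per genotype limits every ratio.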
